A study of Saccharomyces cerevisiae with 8 samples.

Results

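The cytosolic translation factors of budding yeast are the proteins that bring the ribosome to a messenger RNA, move it along the coding sequence and release the finished protein. The set described here holds 38 genes of initiation, elongation and termination, chosen by symbol or synonym from the gene table of the array. Of these, 35 had a probe set and all 35 lay above background and were tested, among 5496 tested probe sets for 5448 genes. The other 3, TIF1, TEF1 and EFT1, encode near-identical copies of TIF2, TEF2 and EFT2. The probe sets named TIF2, TEF2 and EFT2 carry the array maker's suffix for probes that several transcripts share, so their signal cannot be assigned to either copy.

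RNA was measured on 8 Affymetrix arrays, 2 for each of 4 strain labels, from separate experiments and cultures. The wild type was BY4741. The label A880 stands for BY4741 with POP2 deleted; POP2 encodes a deadenylase of CCR4-NOT, which removes poly(A) tails from messenger RNA. Transformation of A880 with STM1, the gene of a ribosome-bound protein, gave A880STM1 and, where STM1 carried R237K, A880STM1K. All cultures went from synthetic complete medium with 2% glucose, at an optical density of 1, into the same medium with 2% glycerol, a carbon source that yeast respires, for 12 hours. How much STM1 the introduced gene should give, and what drives it, is not given in the sources used here.

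POP2 went against the labels of 4 arrays, so A880STM1 and A880STM1K below mean the arrays so labelled. Its signal was 883 and 814 on the BY4741 arrays and 0.221 and 0.452, below background, on the A880 arrays, but 181 and 286 on those labelled A880STM1 and 255 and 176 on those labelled A880STM1K. The strains also differed in cell-type markers. The summed signal of 7 haploid-specific genes was 4336 to 4409 on BY4741, 5189 to 5225 on A880, 588 to 698 on A880STM1-labelled and 957 to 1247 on A880STM1K-labelled arrays. For 7 a-cell-specific genes the sum ran from 3070 to 3073, from 2942 to 3367, from 675 to 761 and from 842 to 940 in the same order, and for 4 alpha-cell-specific genes from 642 to 721, from 440 to 484, from 375 to 447 and from 856 to 911. Every change below between A880 or BY4741 and a transformed strain moves together with these differences, and their part in it was not tested. The same holds for A880STM1K against A880STM1, where 3 of 4 alpha-cell-specific, 2 of 7 haploid-specific and 2 of 7 a-cell-specific genes were called higher and 0 lower. Of all tested probe sets 17.9% were called higher and 17.1% lower there, so the haploid-specific and a-cell-specific counts were not far from the share higher. The a-cell-specific genes went both ways, from log2 -0.80 to 1.48. STM1 itself read 2043 and 2566 on BY4741, 2960 and 3096 on A880, 9441 and 5027 on A880STM1-labelled and 8697 and 8143 on A880STM1K-labelled arrays.

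Initiation begins when eIF2, carrying the initiator transfer RNA and GTP, joins the small ribosomal subunit together with eIF1, eIF1A, eIF3 and eIF5. The cap-binding complex eIF4F recruits the messenger RNA, and eIF5B joins the large subunit once a start codon is found. Elongation needs eEF1A, which delivers aminoacyl-tRNA, its exchange factor eEF1B, the translocase eEF2 and, in fungi, the ATPase eEF3, which acts on the ribosomal E site. The release factors eRF1 and eRF3 end synthesis at a stop codon. Signals below are the authors' MAS5 signal in arbitrary units, comparable between arrays for 1 gene but not between genes. Changes are differences of mean log2 signal ± SE from a limma fit over all 8 arrays, with n = 2 per group, and a gene was called when its Benjamini-Hochberg adjusted p over all 5496 probe sets was below 0.05. Calls are those of this fit unless another setting is named.

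Translation factors were mostly higher on the arrays labelled A880STM1K, while the arrays of the other 3 labels lay closer together. Against A880, 12 of 35 rose and 1 fell in A880STM1K; 47.1% of all tested probe sets were called in this comparison, 19.1% higher and 28.0% lower. For A880STM1 against A880, 2 rose and 1 fell, beside 19.9% of all probe sets (6.82% higher, 13.1% lower). In A880 against BY4741, 1 of 35 rose and 0 fell, beside 13.9% of all probe sets (7.71% higher, 6.19% lower). The direct comparison of A880STM1K with A880STM1 had 14 higher and 1 lower, beside 17.9% higher and 17.1% lower among all probe sets (35.0% in either direction). These comparisons share arrays, those with A880 its 2 arrays, and are given side by side. Against BY4741 the count was 19 higher and 2 lower for A880STM1K, beside 21.2% and 28.3% of all probe sets (49.5% together), and 1 higher and 0 lower for A880STM1, beside 5.40% and 6.30% (11.7% together).

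**Figure D1:**
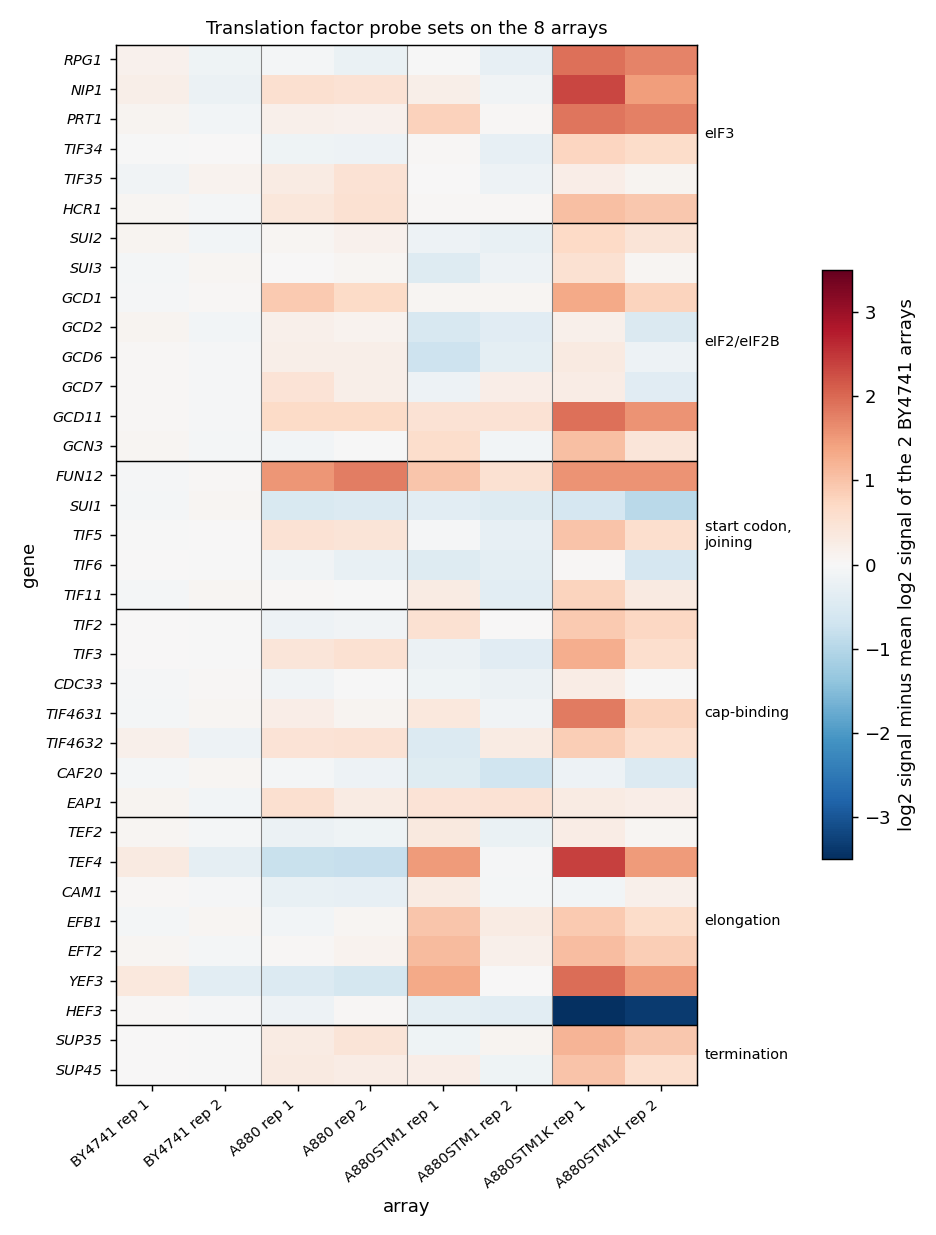
Signal of the 35 translation factor probe sets (rows, by role) on the 8 arrays (columns). Colour gives log2 signal minus the mean log2 signal of the 2 BY4741 arrays. Both A880STM1K arrays are the reddest for most eIF3 genes and for SUP35 and SUP45, and HEF3 is the dark blue row there. FUN12 is red on all 6 arrays outside BY4741.

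The median change of the 35 factors was log2 0.45 for A880STM1K against A880, where all tested probe sets had a median of -0.17. It was -0.21 for A880STM1 against A880 (all tested -0.27) and 0.10 for A880 against BY4741 (all tested 0.017). Equal array medians moved the median of all probe sets by more than 0.1 in each of these comparisons, and quantile normalization in those of A880STM1K and A880STM1 with A880. With equal array medians the factors stood at 0.80, 0.18 and -0.016, and all tested probe sets at 0.18, 0.12 and -0.10, in that order. In A880STM1K against A880, equal array medians gave 20 factors higher and 1 lower, beside 29.3% and 20.0% of all probe sets. Quantile normalization gave 15 and 3, beside 26.0% and 27.6%, with FUN12 (log2 -0.48) and SUI1 (log2 -0.53) joining HEF3 among the lower. The factors that equal array medians added were HCR1, SUI2, SUI3, GCD1, GCN3, TIF3, TIF5 and SUP45. In A880STM1 against A880 the same scalings gave 0 and 0, beside 11.5% and 5.84%, then 1 higher and 2 lower, beside 9.95% and 9.48%. HEF3 (log2 -0.675) was 1 of those 2. Equal array medians also turned the split for A880 against BY4741, from 424 probe sets higher and 340 lower to 413 and 554, and that for A880STM1 against BY4741, from 297 and 346 to 358 and 193; for A880STM1K against BY4741 the split went from 1164 and 1556 to 1489 and 1306. Relative to all tested probe sets the factors were 0.615 higher for A880STM1K against A880 and 0.435 higher with quantile normalization. Equal array medians cannot change this relative value, because that scaling shifts every probe set of an array alike. For A880STM1 against A880 that relative value was 0.063 and, with quantile normalization, -0.14, so the sign of the set's shift there depends on the scaling. The size of the A880STM1K shift also differed between its arrays, with 28 of 35 factors above the A880 mean on replicate 1 (median log2 0.59) and 24 on replicate 2 (median 0.29). All tested probe sets had medians of log2 -0.124 on replicate 1 and -0.212 on replicate 2. Within that label, replicate 1 exceeded replicate 2 for 33 of 35 factors, beside 57.4% of all tested probe sets.

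eIF3, the scaffold that binds the small subunit and holds the other initiation factors, had the strongest rise of any initiation group in A880STM1K. Of its 6 measured subunits 4 rose in A880STM1K against A880 and 0 fell, beside 19.1% and 28.0% of all probe sets. The median of the 6 was log2 1.12 (1.09 under quantile normalization, 1.47 under equal array medians). RPG1 (YBR079C), the eIF3a subunit, gave 804 and 663 on BY4741, 703 and 623 on A880, 723 and 598 on A880STM1 and 2793 and 2444 on A880STM1K arrays. The 6 arrays outside A880STM1K overlapped each other and both A880STM1K arrays lay far above them. Its change against A880 was log2 1.98 ± 0.23, adjusted p = 0.000130, the smallest p among the factors that rose in this comparison.

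NIP1 (YMR309C), eIF3c, read 802 and 606, 1020 and 987, 797 and 638, and 3548 and 1918 for BY4741, A880, A880STM1 and A880STM1K. PRT1 (YOR361C), eIF3b, read 875 and 763, 918 and 903, 1438 and 845, and 2986 and 2761 in that order. Both genes were highest on the A880STM1K arrays without overlap, although the NIP1 values there differed from each other by more than those of any other label. NIP1 rose against A880 by log2 1.38 ± 0.30 (adjusted p = 0.00399) and PRT1 by log2 1.66 ± 0.26 (adjusted p = 0.000755). TIF34 (YMR146C), eIF3i, read 1634 and 1662, 1486 and 1464, 1704 and 1352, and 2771 and 2589. It rose by log2 0.86 ± 0.21 (adjusted p = 0.00650), a call lost without A880 replicate 1 (adjusted p = 0.0616) or A880 replicate 2 (0.0658).

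The remaining subunits did not pass against A880, though HCR1 did under quantile normalization (adjusted p = 0.0252) and under equal array medians (0.00736). HCR1 (YLR192C), eIF3j, a loosely bound subunit that also acts in recycling, had 996 and 912, 1252 and 1388, 982 and 990, and 1984 and 1831. It was higher in A880STM1K than in A880STM1 by log2 0.95 ± 0.20 (adjusted p = 0.00519, and 0.0589 in a fit of those 4 arrays alone). TIF35 (YDR429C), eIF3g, stood apart from its partners, with 1389 and 1620, 1824 and 2144, 1515 and 1321, and 1758 and 1605. Its A880STM1K values lay below both A880 arrays, at a change of log2 -0.24 (0.11 with equal array medians), and it was called in none of the 6 comparisons.

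Among eIF2 and its exchange factor eIF2B, which reloads eIF2 with GTP and is the target of the Gcn2 stress pathway, 1 of 8 rose and 0 fell in A880STM1K against A880. Of all probe sets 19.1% were higher and 28.0% lower there, so this group did not exceed those shares. The riser was GCD11 (YER025W), eIF2 gamma, the subunit that binds GTP and the initiator transfer RNA. Its signal was 982 and 916 on BY4741, 1506 and 1497 on A880, 1352 and 1358 on A880STM1 and 3631 and 2802 on A880STM1K arrays. The 4 labels did not overlap for this gene. GCD11 rose by log2 1.09 ± 0.21 against A880 (adjusted p = 0.00217) and by log2 1.24 ± 0.21 against A880STM1 (adjusted p = 0.00153). The alpha subunit SUI2 (YJR007W), whose phosphorylation lowers initiation, read 1474 and 1311, 1444 and 1539, 1235 and 1162, and 2265 and 1905. It passed against A880STM1 (log2 0.79 ± 0.21, adjusted p = 0.0136, and 0.127 with those 4 arrays alone) and had log2 0.48 against A880, short of the threshold. The beta subunit SUI3 ranged from 1109 to 2197 over the 8 arrays and was called in no comparison. Equal array medians called it higher in A880STM1K than in A880 (log2 0.63, adjusted p = 0.0297) and than in BY4741 (log2 0.54, adjusted p = 0.0495).

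The 5 subunits of eIF2B did not move as a block. GCD1 (YOR260W), a subunit of its catalytic part, had 476 and 497 on BY4741, 915 and 777 on A880, 509 and 506 on A880STM1 and 1229 and 837 on A880STM1K. Its values on BY4741 and A880STM1 lay close together, below those of A880 and A880STM1K, which overlapped. GCD1 was higher in A880STM1K than in A880STM1 by log2 1.00 ± 0.25 (adjusted p = 0.0116, and 0.0655 with those 4 arrays alone), while its change for A880 against BY4741 was log2 0.79 and for A880STM1 against A880 log2 -0.73, neither of which was called. GCD6, the catalytic epsilon subunit, and the regulatory subunits GCD2 and GCD7 had changes of log2 -0.14, -0.30 and -0.41 for A880STM1K against A880, and those of GCD6 and GCD2 turned positive under both other scalings. GCN3, the regulatory alpha subunit, had log2 0.80, from 376 and 398 to 836 and 541. None of these 4 was called in any comparison. Under equal array medians GCD6 was called higher in A880STM1K than in A880STM1 (log2 0.56, adjusted p = 0.0442), and GCN3 was called higher in A880STM1K than in A880 under both other scalings (adjusted p = 0.0165 with quantile normalization, 0.0233 with equal array medians).

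The factors of start-codon recognition and subunit joining held the single called change of A880 against BY4741. FUN12 (YAL035W), eIF5B, gave 1317 and 1383 on BY4741, 3958 and 4645 on A880, 2658 and 1959 on A880STM1 and 4013 and 4008 on A880STM1K arrays. BY4741 was lowest, the A880 and A880STM1K arrays shared 1 range, and A880STM1 lay between without overlapping either side. The rise in A880 was log2 1.67 ± 0.22 (adjusted p = 0.00142). FUN12 was lower in A880STM1 than in A880 by log2 -0.91 ± 0.22 (adjusted p = 0.0204), but leaving out A880 replicate 1 (log2 -1.03, adjusted p = 0.118) or replicate 2 (log2 -0.80, adjusted p = 0.189) ended that call, as did equal array medians (log2 -0.52, adjusted p = 0.242). Its change for A880STM1K against A880 was log2 -0.097, which was not called and had the opposite sign with equal array medians (log2 0.25). Against BY4741, FUN12 was higher in A880STM1K by log2 1.57 ± 0.22 (adjusted p = 0.000276).

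SUI1 (YNL244C), eIF1, which guards against wrong start codons, ran the other way from most factors. It read 4252 and 4596 on BY4741, 3040 and 3189 on A880, 3406 and 3242 on A880STM1 and 2942 and 2289 on A880STM1K. BY4741 was highest on both arrays, and the fall in A880STM1K against BY4741 was log2 -0.77 ± 0.21 (adjusted p = 0.0108). That call was lost without BY4741 replicate 1 (adjusted p = 0.0627), without BY4741 replicate 2 (0.104) and with equal array medians (0.121). TIF5 (YPR041W), eIF5, the GTPase-activating partner of eIF2, had 1091 and 1125, 1585 and 1502, 1081 and 909, and 2199 and 1668. It was higher in A880STM1K than in A880STM1 by log2 0.95 ± 0.22 (adjusted p = 0.00809, and 0.0589 with those 4 arrays alone), with log2 0.31 against A880. TIF11, eIF1A, ranged from 1431 to 3161 and TIF6, which keeps large subunits from joining too early, from 1353 to 2083, and neither was called in any comparison.

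The cap-binding group joins eIF4E (CDC33), eIF4G (TIF4631 and TIF4632), the helicase eIF4A (TIF1 and TIF2), its partner eIF4B (TIF3) and the proteins Caf20 and Eap1, which compete with eIF4G for eIF4E. Of 7 probe sets 2 rose in A880STM1K against A880 and 0 fell, beside 19.1% and 28.0% of all probe sets. The TIF2 probe set read 4168 and 4166 on BY4741, 3698 and 3841 on A880, 6055 and 4239 on A880STM1 and 7906 and 6879 on A880STM1K. A880STM1K was highest without overlap, by log2 0.97 ± 0.22 over A880 (adjusted p = 0.00543, and 0.0541 without A880 replicate 1). TIF4631 (YGR162W), the more abundant eIF4G in textbook accounts, had 777 and 870, 972 and 877, 1058 and 762, and 2909 and 1404. Its rise against A880 was log2 1.13 ± 0.32 (adjusted p = 0.0159), and it rested on replicate 1 of A880STM1K, without which it was log2 0.61 (adjusted p = 0.0913). It was also lost without A880 replicate 1 (0.0506) or A880 replicate 2 (0.0787).

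TIF3 (YPR163C) read 898 and 876, 1185 and 1294, 775 and 677, and 2155 and 1328 in the same order. It was higher in A880STM1K than in A880STM1 by log2 1.22 ± 0.26 (adjusted p = 0.00466) and was not called in either comparison with A880. CDC33, the cap-binding protein itself, stayed between 1845 and 2540 on all 8 arrays. CAF20 ranged from 1221 to 2092 and EAP1 from 886 to 1395, and these 3 genes were called in no comparison. Equal array medians called EAP1 higher in A880STM1 than in BY4741 (log2 0.76, adjusted p = 0.0498). TIF4632, the second eIF4G gene, had 409 and 325, 510 and 520, 264 and 445, and 662 and 547. It was not called either, but under both other scalings it was called higher in A880STM1K than in A880STM1 (adjusted p = 0.0194 and 0.0215). The same scalings called it higher than in BY4741 (0.0045 and 0.00625), and quantile normalization higher than in A880 (0.0322).

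**Figure D2:**
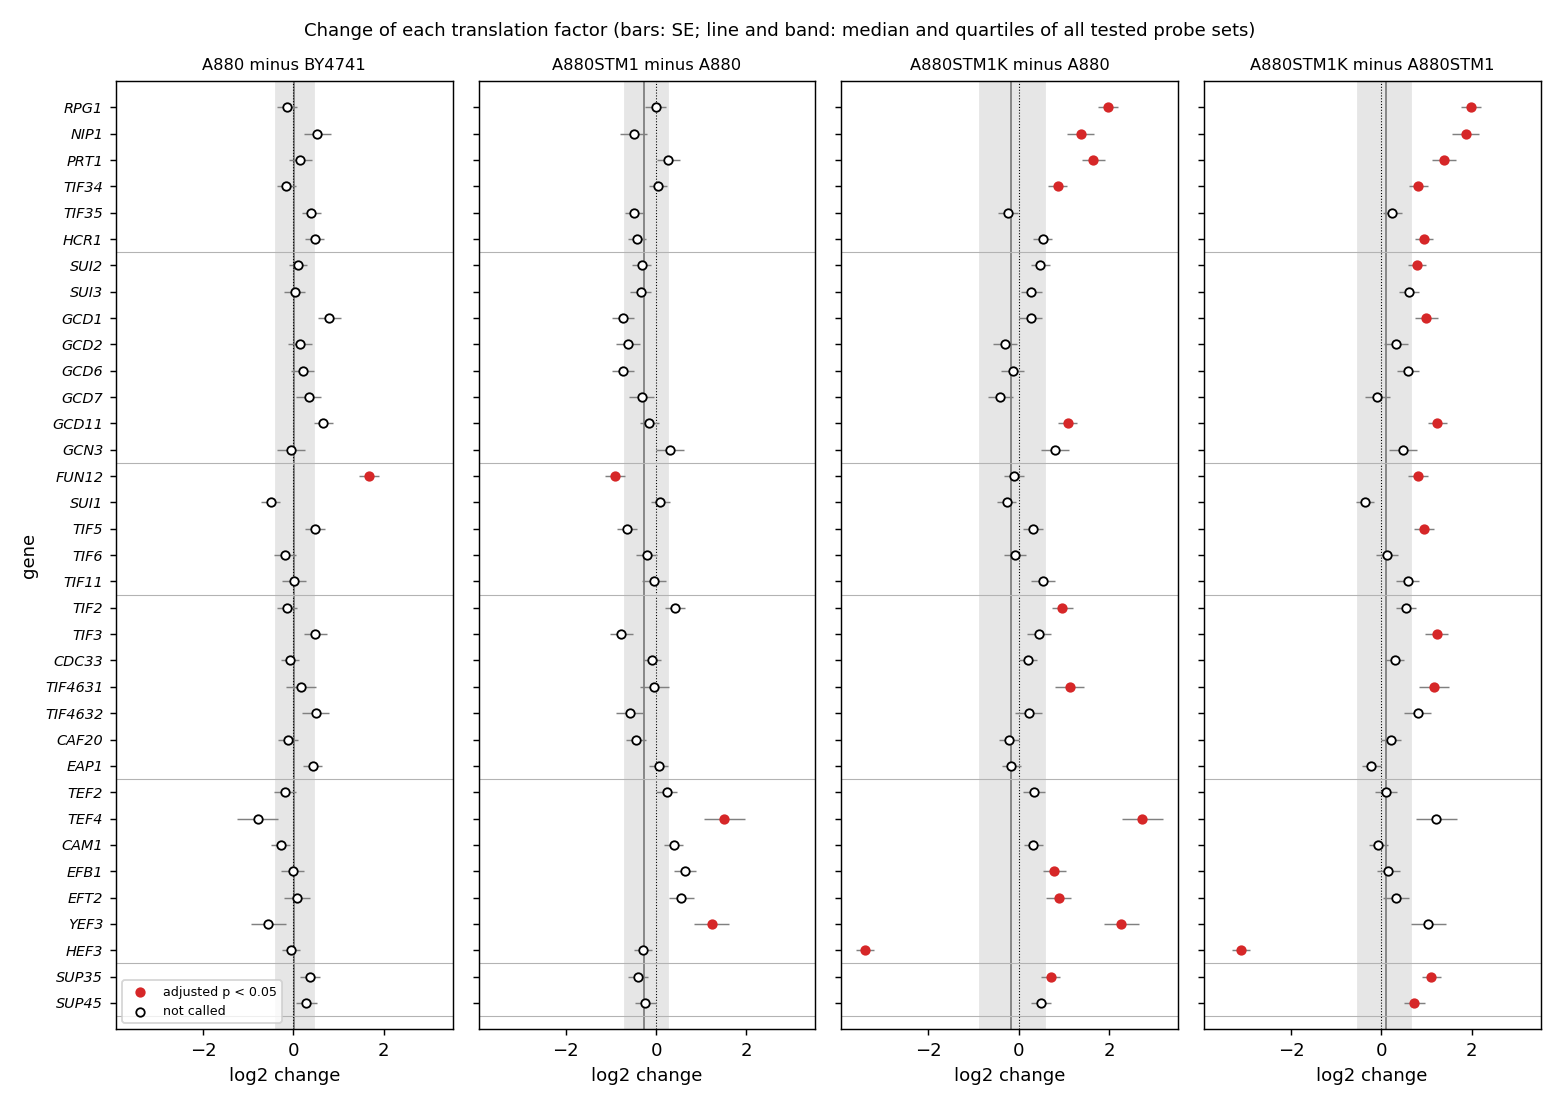
Log2 change of each translation factor (points) with its SE (bars) in 4 comparisons; red points had an adjusted p below 0.05, and the grey line and band are the median and quartiles of all 5496 tested probe sets. In the panels against A880, FUN12, TEF4 and YEF3 are red for A880STM1, while A880STM1K has 12 red points to the right and HEF3 at log2 -3.39.

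Elongation factors held both the largest rise and the largest fall of the set in A880STM1K against A880. Of 7 probe sets 4 rose and 1 fell in A880STM1K against A880, beside 19.1% and 28.0% of all probe sets. In A880STM1 against A880 2 rose and 0 fell, beside 6.82% and 13.1%. For A880STM1K against A880STM1, 0 of 7 were higher and 1, HEF3, was lower, beside 17.9% and 17.1%. The group median there was log2 0.15, beside 0.097 for all tested probe sets. YEF3 (log2 1.04, adjusted p = 0.0624) and TEF4 (log2 1.22, adjusted p = 0.0586) were not called in it. Quantile normalization did call YEF3 (0.037), and the 4 arrays alone called TEF4 (0.0136). YEF3 (YLR249W), the eEF3 gene that yeast needs for growth, gave 2974 and 1788 on BY4741, 1643 and 1502 on A880, 5821 and 2339 on A880STM1 and 8926 and 6457 on A880STM1K. Both A880STM1K arrays were above all others, the A880 arrays were lowest, and the A880STM1 and BY4741 values overlapped. YEF3 was higher than in A880 by log2 2.27 ± 0.39 in A880STM1K (adjusted p = 0.00119).

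HEF3 (YNL014W), the paralog of YEF3, moved the opposite way. It read 6168 and 5826 on BY4741, 5340 and 6186 on A880, 4730 and 4649 on A880STM1 and 509 and 588 on A880STM1K. The first 6 values ran from 4649 to 6186, with both A880STM1 arrays below every BY4741 and A880 array. The last 2 lay far below these and close to each other. Under quantile normalization HEF3 was also called lower in A880STM1 than in A880 (log2 -0.675, adjusted p = 0.0362). The fall was log2 -3.39 ± 0.20 against A880 (adjusted p = 3.51e-06), or 10.5-fold, log2 -3.10 ± 0.20 against A880STM1 (adjusted p = 1.25e-05) and log2 -3.45 ± 0.20 against BY4741 (adjusted p = 3.12e-06). HEF3 was the single factor that fell in A880STM1K against A880 or A880STM1, and no left-out array or other scaling removed the call.

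The ratio of YEF3 to HEF3 signal within an array gives their unequal change, although its absolute value has no meaning across probe sets. As a log2 value it was -1.05 and -1.70 on BY4741, -1.70 and -2.04 on A880, 0.30 and -0.99 on A880STM1 and 4.13 and 3.46 on A880STM1K. The A880STM1K mean exceeded that of A880 by 5.66 and that of A880STM1 by 4.14, far more than any difference between replicates. An exact permutation test over all 105 ways to pair the 8 arrays gave p = 0.019 for a difference among the 4 labels (smallest possible 0.00952), or 0.057 after Benjamini-Hochberg adjustment over 3 paralog pairs, above 0.05.

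TEF4 (YKL081W) and CAM1 (YPL048W) encode the alternative gamma subunits of eEF1B. TEF4 read 1524 and 981 on BY4741, 714 and 700 on A880, 3421 and 1187 on A880STM1 and 6446 and 3436 on A880STM1K. CAM1 read 3396 and 3173, 2724 and 2677, 3977 and 3156, and 3093 and 3706 in that order. TEF4 spanned a 9.20-fold range over the 8 arrays and CAM1 a 1.49-fold range. TEF4 rose in A880STM1K against A880 by log2 2.73 ± 0.45 (adjusted p = 0.000960), the largest rise of any factor in that comparison, while CAM1 had log2 0.33 and was called nowhere. The within-array ratio of TEF4 to CAM1 was 2.41 higher on the log2 scale in A880STM1K than in A880, with p = 0.0667 in the exact permutation test (0.100 adjusted). The eIF4G pair TIF4631 and TIF4632 gave p = 0.495 in the same exact permutation test.

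For A880STM1 against A880 the elongation calls depended on single arrays. TEF4 was higher by log2 1.51 ± 0.45 (adjusted p = 0.0415) and YEF3 by log2 1.23 ± 0.39 (adjusted p = 0.04996). Without A880STM1 replicate 1, TEF4 had log2 0.75 (adjusted p = 0.301) and YEF3 log2 0.57 (adjusted p = 0.325). Without A880 replicate 1 the adjusted p was 0.144 for TEF4 and 0.159 for YEF3, and without A880 replicate 2 it was 0.157 and 0.190. YEF3 was also lost without BY4741 replicate 1 (0.0542) or replicate 2 (0.0550). Leaving out an A880 or BY4741 array kept the changes at log2 1.17 to 1.52. Equal array medians gave log2 1.90 for TEF4 (adjusted p = 0.0530) and log2 1.62 for YEF3 (0.0646), larger changes that missed the threshold, and quantile normalization gave log2 0.995 for YEF3 (0.0813). Replicate 1 of A880STM1 had the lowest array median of tested probe sets, 485, where the other 7 arrays had 543 to 732, and its part in these changes was not tested. The elongation group had a median of log2 0.56 in this comparison, 0.14 under quantile normalization, 0.95 under equal array medians.

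**Figure D3:**
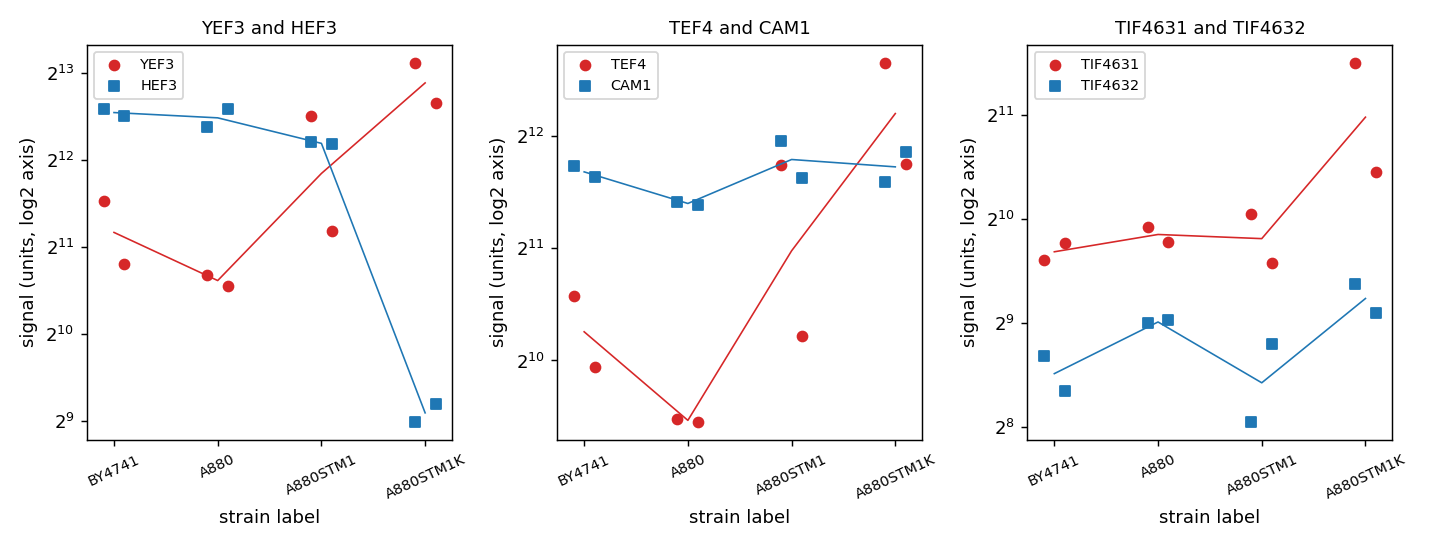
Signal of 3 paralog pairs by strain label on a log2 axis; each symbol is 1 array and lines join geometric means of the 2 arrays. Levels of different probe sets cannot be compared, so the slopes carry the information: HEF3 drops to 509 and 588 in A880STM1K while YEF3 climbs to 8926 and 6457, and CAM1 spans 2677 to 3977 while TEF4 spans 700 to 6446.

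The other elongation genes moved less than YEF3, HEF3 and TEF4. EFB1 (YAL003W), the catalytic subunit of eEF1B, read 2747 and 3047 on BY4741, 2729 and 3017 on A880, 5705 and 3514 on A880STM1 and 5441 and 4543 on A880STM1K. The EFT2 probe set for eEF2 read 4140 and 3730, 4075 and 4268, 8543 and 4440, and 8327 and 7108. In both, the 2 labels with added STM1 were above BY4741 and A880 on every array, and replicate 1 of A880STM1 was the highest of all 8. Against A880, A880STM1K was higher by log2 0.79 ± 0.25 for EFB1 (adjusted p = 0.0252) and log2 0.88 ± 0.29 for EFT2 (adjusted p = 0.0268). Both calls were lost without A880 replicate 1 (adjusted p = 0.149 and 0.118), A880 replicate 2 (0.0871 and 0.0935) or A880STM1K replicate 1 (0.0915 and 0.0975). The TEF2 probe set, for eEF1A, stayed between 5770 and 8701 and was not called.

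Both release factors were higher in A880STM1K than in A880STM1. SUP35 (YDR172W), the GTPase eRF3 and the source of the yeast prion PSI, had 1087 and 1053 on BY4741, 1314 and 1450 on A880, 957 and 1142 on A880STM1 and 2461 and 2071 on A880STM1K. SUP45 (YBR143C), eRF1, which reads stop codons, had 1302 and 1272, 1587 and 1546, 1513 and 1169, and 2552 and 1918. The A880STM1K arrays were highest for both without overlap. SUP35 was higher than in A880STM1 by log2 1.11 ± 0.21 (adjusted p = 0.00286) and than in A880 by log2 0.71 ± 0.21 (adjusted p = 0.0194). The latter call was lost without A880 replicate 1 (0.166), A880 replicate 2 (0.0935) or A880STM1K replicate 1 (0.0601). SUP45 was higher than in A880STM1 by log2 0.73 ± 0.23 (adjusted p = 0.0299). It lost that call with equal array medians (0.0700) and without any of 6 arrays: either BY4741 array (0.0616 and 0.0618), either A880 array (0.0674 and 0.0674), A880STM1 replicate 2 (0.0948) or A880STM1K replicate 1 (0.114).

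Across the set, 7 of the 13 calls for A880STM1K against A880 withstood both other scalings and the loss of any 1 array, namely RPG1, NIP1, PRT1, GCD11, TEF4, YEF3 and HEF3. For A880STM1K against A880STM1, 12 of 15 held: RPG1, NIP1, PRT1, TIF34, HCR1, SUI2, GCD1, GCD11, TIF3, TIF5, HEF3 and SUP35. Of these, TIF34, HCR1, SUI2, GCD1 and TIF5 lost the call with array weights per group and with the 4 arrays alone. For A880STM1K against BY4741 12 of 21 held, including FUN12, RPG1, TEF4, YEF3 and HEF3. For A880STM1 against A880, 0 of 3 held. The single call for A880STM1 against BY4741, FUN12 at log2 0.76 ± 0.22 (adjusted p = 0.0488), was lost with equal array medians (log2 1.03, adjusted p = 0.0642) and without BY4741 replicate 1 (log2 0.72, 0.271) or 2 (log2 0.79, 0.249), A880 replicate 1 (0.104) or 2 (0.104) or A880STM1 replicate 1 (0.155).

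The shared estimate of spread bore on A880 against BY4741. The factors differed between replicates by a median of log2 0.12 in BY4741 and 0.080 in A880, against 0.32 in A880STM1 and 0.32 in A880STM1K. When the fit used the 4 arrays of A880 and BY4741 alone, and so none of the arrays that went against their labels, 12 of 35 factors were higher and 3 lower. In that fit 29.6% of all tested probe sets were higher and 24.8% lower, so the higher count was near the share of all probe sets and the lower count below it. The strongest by p were FUN12 (adjusted p = 0.000162), GCD11 (log2 0.66, adjusted p = 0.00165), GCD1 (log2 0.79, adjusted p = 0.00213) and SUI1 (log2 -0.51, adjusted p = 0.00304), with TEF4 (log2 -0.79, adjusted p = 0.0147) and CAM1 (log2 -0.28, adjusted p = 0.0272) the other 2 that were lower.

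Other genes of translation were read from 4 lists. Cytosolic aminoacyl-tRNA synthetases, which charge transfer RNAs with amino acids, formed a list that also holds ARC1. CRS1, another gene of that list, had no probe set. Of its 21 tested members 19 were higher and 0 lower in A880STM1K against A880. The shares of all probe sets there were 19.1% and 28.0%. The list had a median of log2 1.42 beside -0.17 for all tested probe sets. FRS1, a phenylalanine enzyme subunit, rose by log2 2.64 ± 0.32 (adjusted p = 0.000193), KRS1, the lysine enzyme, by 2.76 ± 0.41 (0.000491) and GRS1, the glycine enzyme, by 2.07 ± 0.31 (0.000519). GRS1 read 743 and 545 on BY4741, 1159 and 1130 on A880, 1863 and 967 on A880STM1 and 5316 and 4333 on A880STM1K, so that A880STM1K was highest and BY4741 lowest, each without overlap, and A880 and A880STM1 overlapped. Against A880STM1 18 were higher and 0 lower, beside 17.9% and 17.1% of all probe sets, or 9 and 0 with equal array medians, beside 17.7% and 19.3%. In A880STM1 against A880 the list had 1 of 21 higher, KRS1, beside 6.82% of all probe sets. The KRS1 call did not hold with every array left out in turn. In A880 against BY4741 limma called 0 of 21 in either direction, beside 13.9% of all probe sets. In that fit 6 of 21 had an unadjusted p below 0.05. Without a share of all probe sets for that value, the count is no sign of a shift particular to the synthetases. Quantile normalization gave 2 higher, beside 13.2%. Of the 19 calls, 12 withstood both other scalings and the loss of any 1 array.

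In a list of 20 further initiation proteins and regulators, 8 rose and 3 fell in A880STM1K against A880, where 19.1% of all probe sets were higher and 28.0% lower. STM1, which was introduced into the strain, is counted among the 8. DBP1, the paralog of the helicase gene DED1, read 3366 and 3316 on BY4741, 2667 and 2646 on A880, 1453 and 2235 on A880STM1 and 420 and 447 on A880STM1K. Like HEF3 it was lowest by far on the A880STM1K arrays, by log2 -2.62 ± 0.24 against A880 (adjusted p = 3.39e-05). DED1 itself had log2 0.15 there, with 1537 and 1483, 1978 and 1832, 5281 and 3069, and 2873 and 1557 on the 8 arrays. CLU1, a protein found with eIF3, rose by log2 1.32 ± 0.22 (adjusted p = 0.000954), DHH1, a helicase of messenger RNA decay, by log2 1.20 ± 0.22 (adjusted p = 0.00148) and STM1, the introduced gene, by 1.48 ± 0.28 (adjusted p = 0.00207). In A880 against BY4741, 2 rose and 1 fell in this list, beside 7.71% and 6.19% of all probe sets. These were CLU1 at log2 1.40 ± 0.22 (adjusted p = 0.00373), MSI3 at 0.93 ± 0.27 (adjusted p = 0.0441) and DHH1 at -1.06 ± 0.22 (adjusted p = 0.0116). None of those 3 calls held with every array left out in turn. In A880STM1 against A880 4 rose and 0 fell, beside 6.82% and 13.1% of all probe sets, and 0 of the 4 held. The list holds STM1, whose mean signal was 3028 in A880 and 7234 in A880STM1. As the introduced gene, its rise is no result about the list.

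Of 17 enzymes that modify elongation and release factors, 2 rose and 6 fell in A880STM1K against A880, beside 19.1% and 28.0% of all probe sets. DYS1, which starts hypusine formation on eIF5A, rose by log2 1.94 ± 0.37 (adjusted p = 0.00193). MTQ2, the methyltransferase of eRF1, fell by 1.43 ± 0.23 on the log2 scale (adjusted p = 0.000833), JJJ3, which acts in diphthamide formation on eEF2, had -2.23 ± 0.50 (adjusted p = 0.00455) and EFM4, a methyltransferase of eEF1A, -1.61 ± 0.37 (adjusted p = 0.00497). All 4 of these calls withstood both other scalings and the loss of any 1 array. The list had 1 higher and 1 lower in A880 against BY4741, beside 7.71% and 6.19% of all probe sets. None was called in A880STM1 against A880 by limma at an adjusted p below 0.05, where 19.9% of all probe sets were. In that comparison 9 of 17 members had an unadjusted p below 0.05. No share of all probe sets is given here for that value, so the count cannot show whether the list differed from other genes. With equal array medians, 4 rose and 4 fell in A880STM1K against A880, beside 29.3% and 20.0% of all probe sets. Among 10 rescue and recycling factors, 2 rose, near the 19.1% of all probe sets, and 0 fell in A880STM1K against A880. The risers were GCN20, which the list of initiation regulators also holds, by log2 1.24 ± 0.28 (adjusted p = 0.00476) and RLI1, the recycling ATPase, also in both lists, by 0.96 ± 0.35 (adjusted p = 0.0421, a call lost without any 1 of 7 arrays). In A880STM1 against A880 0 rose and 3 fell, beside 6.82% and 13.1% of all probe sets. Those that fell were HBS1, DOM34 and TMA64, all lost under both other scalings. In A880 against BY4741 HBS1 alone rose, beside 7.71% of all probe sets, by log2 0.96 ± 0.24 (adjusted p = 0.0240), a call lost without any 1 of 4 arrays.

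**Figure D4:**
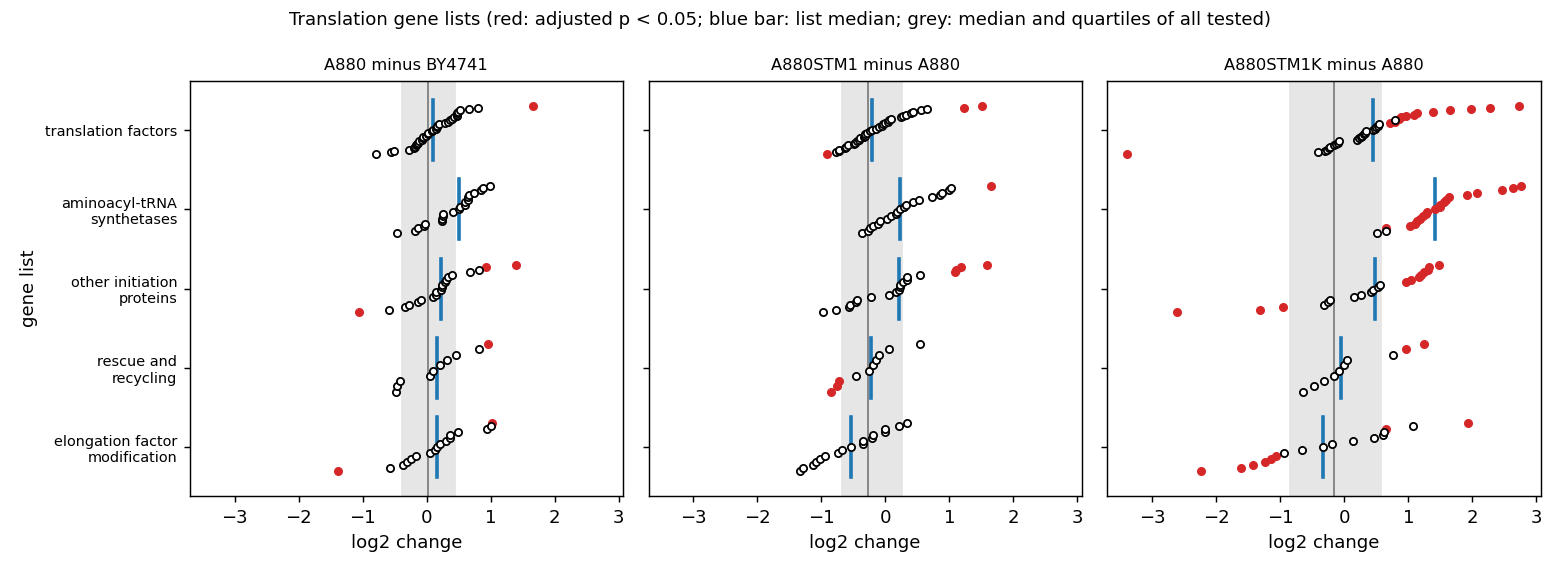
Log2 change of the translation factors and 4 further lists (rows of points, 1 point per gene) in A880 against BY4741 and in each transformed strain against A880; red points had an adjusted p below 0.05, blue bars are list medians and the grey line and band are the median and quartiles of all tested probe sets. In the panel of A880STM1K against A880 the synthetases are shifted to the right, with 19 of 21 red.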

How the data were processed

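Expression was measured in 8 yeast cultures, 2 per strain label. Biotin-labelled cRNA was made from 10 µg of RNA for an Affymetrix yeast array, per the labels. The authors' values are linear signal intensity per probe set from MAS5, as the submitters' processing notes name it, with no version or settings in the sources used here. Each array's mean, after trimming 2% at each end, was 500.15 to 500.26, so the deposited arrays had been scaled together. Gene symbols follow the reference table for assembly R64.

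Intensity was converted to log2. Background was the 90th percentile of an array's probe sets for another yeast species (5.15 to 8.40 units), and named probe sets above it on at least 2 arrays were tested. limma 3.58.1 (R 4.3.3) fitted group means, with eBayes moderation that follows an intensity trend, for 6 contrasts. The paralog test permuted log2 ratios exactly. Every member is named; those called in a comparison with A880 or between the transformed strains are given per array, with SUI1 and 3 paralog pairs, and of each further list up to 4 called genes by smallest p. SUI1, TIF35, GCN3 and the synthetase and initiation genes shown per array were picked after their values were seen. The members and lists were chosen with earlier results of these data known. Alternatives covered scaling, pseudocount, floor, filters, the spread, the replicate number as a block, the 4 arrays of a comparison alone, a stricter threshold and each array left out. The code was tested on simulated data. Precision is limited by 2 arrays per group. Sequences were not used here.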

Additional observations from a re-analysis of the deposited data

Results flagged for a closer look

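The arrays labelled A880STM1K differed from those labelled A880STM1 for 15 of 35 factors by limma (adjusted p below 0.05, n = 2 arrays per group). POP2 went against the labels of both, so these differences cannot be assigned to R237K. In this comparison 35.0% of all tested probe sets were called, and 3 of 4 alpha-cell-specific genes were higher, whose part in these differences was not tested. On the log2 scale the difference was 1.99 for RPG1, 1.87 for NIP1, 1.38 for PRT1, 0.95 for HCR1 and 0.82 for TIF34 among the eIF3 subunits, and 1.24 for GCD11, 1.00 for GCD1 and 0.79 for SUI2 around eIF2. It was 1.22 for TIF3, 1.17 for TIF4631, 0.95 for TIF5 and 0.81 for FUN12 among the other initiation factors. Of the release factors SUP35 had 1.11 and SUP45 0.73. HEF3 alone was negative, at -3.10. TIF4631 lost its call without A880STM1 replicate 2 (adjusted p = 0.129) or A880STM1K replicate 1 (0.0966), and FUN12 with equal array medians (0.0747). SUP45 lost its call with equal array medians (0.0700) and without any 1 of 6 arrays. In a fit of the 4 arrays alone the calls of TIF34 (adjusted p = 0.115), HCR1 (0.0589), SUI2 (0.127), GCD1 (0.0655), TIF5 (0.0589), FUN12 (0.129) and SUP45 (0.166) were lost, and these 7 and TIF4631 were lost with array weights per group.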

How the results depend on the processing

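Of 54 calls of a translation factor over the 6 comparisons, 54 held with a pseudocount of 16, a floor at background, either filter on dim probe sets or the replicate number as a block. The number that held was 53 with quantile normalization, 50 without the intensity trend, 49 over all probe sets of the array, 47 with equal array medians, 43 with array weights per group, 42 with the 4 arrays of a comparison alone, 31 at an adjusted p below 0.01 and 42 to 54 with 1 array left out. No called change reversed. The causes were not tested.

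For A880 against BY4741 the count of factors called, 1, became 2 with quantile normalization, 2 with the replicate block, 17 with array weights (beside 57.1% of all probe sets) and 15 with the 4 arrays alone, and 1 to 4 with 1 array left out. In A880STM1 against A880 the count of 3 became 0 with equal array medians or at an adjusted p below 0.01, 1 over all probe sets, without the trend or with the 4 arrays alone, 5 with the replicate block, and 0 to 11 with 1 array left out. For A880STM1K against A880 the count of 13 became 21 with equal array medians and 7 to 19 with 1 array left out. For A880STM1K against A880STM1 the count of 15 became 7 with array weights and 9 with the 4 arrays alone, while the share of all probe sets called went from 35.0% to 14.4% and 21.5%. It became 9 at an adjusted p below 0.01. In A880STM1 against BY4741 the count of 1 became 3 with quantile normalization, 0 over all probe sets, without the trend, with array weights, with the 4 arrays alone or at an adjusted p below 0.01, and 0 to 7 with 1 array left out. For A880STM1K against BY4741 the count of 21 became 12 at an adjusted p below 0.01 and 12 to 24 with 1 array left out. Fewer arrays or a stricter threshold account by construction for part of these losses.

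With equal array medians the median change of the factors was -0.0155 for A880 against BY4741 and 0.179 for A880STM1 against A880, both of the opposite sign because that scaling shifts every probe set of an array alike (relative to all tested probe sets they stayed at 0.0841 and 0.0634), 0.799 for A880STM1K against A880 and, with BY4741 as the reference, 0.293 in A880STM1 and 0.972 in A880STM1K. With 1 array left out it ran from 0.0551 to 0.161 for A880 against BY4741 and, turning sign without A880STM1 replicate 1, from -0.128 to 0.0485 for A880STM1 against BY4741. The replicate numbers are no stated pairing. Deviations of same-numbered arrays correlated at 0.0367 to 0.287 over all tested probe sets, with 2 pairs per comparison. With 2 arrays per group, differences near the replicate spread could not be detected.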

Other observations

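GCN4, the activator of amino acid synthesis genes, whose protein is made mainly under translational control, read 5318 and 5013 on BY4741, 4569 and 5157 on A880, 6290 and 5132 on A880STM1 and 7288 and 6008 on A880STM1K arrays, with a change of log2 0.45 against A880 that limma did not call (adjusted p = 0.107). GCN2, the kinase of the alpha subunit of eIF2, read 964 and 1058, 917 and 919, 359 and 812, and 275 and 493, and had log2 -1.32 ± 0.38 for A880STM1K against A880 (adjusted p = 0.0168). That call was lost without any 1 of 3 arrays. HYP2, the eIF5A gene of aerobic growth, had log2 0.55 in the same comparison (adjusted p = 0.0764), and its low-oxygen paralog ANB1 stayed between 94.6 and 194 on all 8 arrays. PAB1, the poly(A)-binding protein, was higher in A880STM1K than in A880 by log2 1.05 ± 0.23 (adjusted p = 0.00375) and than in A880STM1 by log2 1.27 ± 0.23 (adjusted p = 0.00186).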
